A study of Homo sapiens with 2 samples.

Results

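The genes of the MYC/MAX/MLX network were examined in a ChIP-seq peak list of RFX6, a DNA-binding protein of the RFX (regulatory factor X) family. The list came from MHCC-97H, an established line of human hepatocellular carcinoma (HCC), in which HA-tagged RFX6 was overexpressed and precipitated through the tag. The 10 genes were taken by name as members of the network (MYC, MAX, MXD1, MXD3, MXD4, MXI1, MNT, MLX, MLXIP and MLXIPL), and all 10 were found among 20037 protein-coding genes of the gene table. The series holds 1 HA-RFX6 ChIP library and 1 input library of the same line, and only the ChIP library had a peak list. An untagged or empty-vector ChIP was not analysed here, so an interval means that MACS2 called enrichment and is not by itself a site of RFX6. With 1 library there is no replicate error, and no test between samples was possible. The list held 5019 distinct intervals on chromosomes 1 to 22 and X, with a median width of 272 bp. Each carried a whole-number score whose meaning is not stated and which serves here only as a rank within the list (median 30, range 13 to 170). If it were −10 log10 of a q value, the threshold of 0.01 in the study's methods would give no score below 20, yet 774 intervals (15.4%) scored lower, so what a low score means is not settled. The read depth is unknown, so the absence of an interval at a gene may also mean shallow coverage there. Since a peak list holds no expression values, the identity of the cells could not be checked.

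The network is built from proteins with a basic helix-loop-helix leucine zipper, which bind DNA as dimers at the E-box CACGTG. MYC needs MAX as its partner to activate genes of growth and glycolysis, and the MXD proteins, MXI1 and MNT compete for MAX and repress. MLX is the common partner of a parallel branch, in which MLXIP (MondoA) and MLXIPL (ChREBP) respond to glucose metabolites. In liver, ChREBP is known for driving glycolytic and lipogenic genes after a carbohydrate meal.

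In this list, 4 of the 10 genes had an interval whose midpoint lay within 1 kb of a gene end, namely MAX, MXD3, MLX and MLXIP. The share was 40.0%, compared with 15.5% of all protein-coding genes. The count is small, and the members were chosen with earlier results of these data known. All 4 intervals were at the start of the gene, and 0 of the 9 members with a known strand had one at the far end. Among all genes with a known strand, 15.1% had an interval at the start and 1.15% at the far end. By role, both common partners (MAX and MLX), 1 of the 5 repressors (MXD3) and 1 of the 2 Mondo proteins (MLXIP) had an interval, whereas MYC had none. When only scores of at least 30 were kept, 2 members (MAX and MLX) remained, beside 9.50% of all protein-coding genes. The 4 genes were also the only members with an interval in the gene or in the 25 kb on either side, where the share over all protein-coding genes was 31.1%. In and within 25 kb of the members lay 8 intervals, 4 at starts of members, 1 inside MLXIP and 3 that belonged to ends of neighbouring genes.

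**Figure D1:**
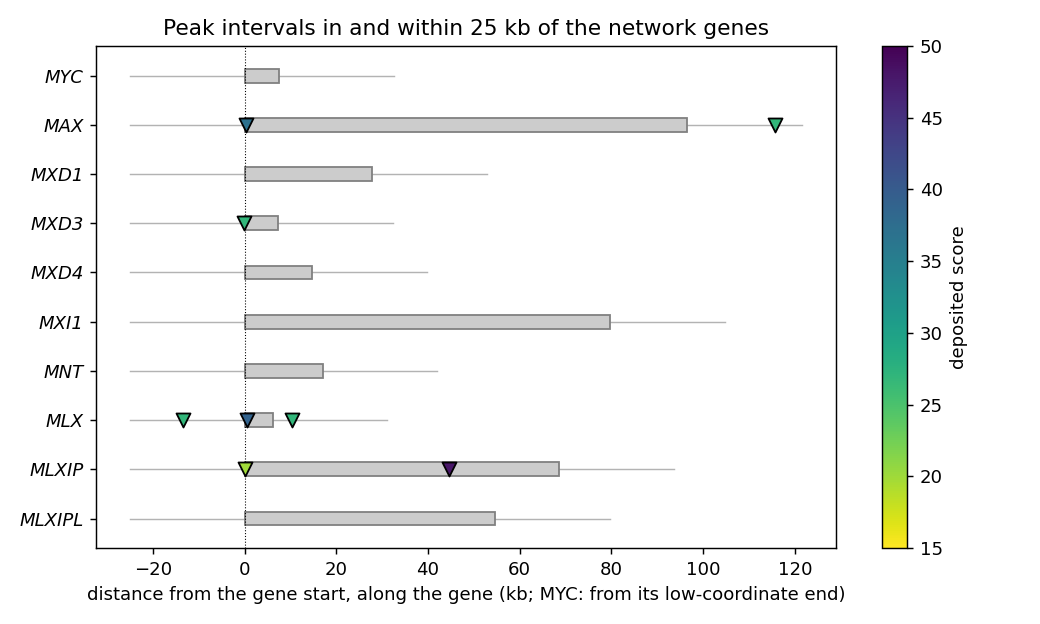
Each row is 1 network gene, drawn from its start (0) along the gene in kb, with the gene as a grey bar, the 25 kb searched on either side as a line, and each interval as a triangle coloured by its deposited score. MAX, MXD3, MLX and MLXIP have a triangle at or near 0, and the other 6 rows are empty.

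The upstream sequences of 4 genes are shown because they place an interval or the network's own E-box relative to a gene start. They are the 250 bases before the start in RefSeq (GRCh38.p14), written 5′ to 3′ on the strand of the gene. For MXD3 (chr5:177312753-177313002, minus strand), capitals mark the 172 bases that the interval covered. For MLX (chr17:42566850-42567099, plus strand), MNT (chr17:2401061-2401310, minus strand) and MXD4 (chr4:2262110-2262359, minus strand), capitals mark the E-box CACGTG.
MXD3: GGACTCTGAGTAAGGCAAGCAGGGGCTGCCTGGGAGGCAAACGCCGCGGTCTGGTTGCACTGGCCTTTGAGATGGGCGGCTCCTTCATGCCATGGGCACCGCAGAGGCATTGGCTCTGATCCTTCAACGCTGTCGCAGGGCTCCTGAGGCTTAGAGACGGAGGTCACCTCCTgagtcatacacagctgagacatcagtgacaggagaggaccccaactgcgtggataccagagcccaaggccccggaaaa
MLX: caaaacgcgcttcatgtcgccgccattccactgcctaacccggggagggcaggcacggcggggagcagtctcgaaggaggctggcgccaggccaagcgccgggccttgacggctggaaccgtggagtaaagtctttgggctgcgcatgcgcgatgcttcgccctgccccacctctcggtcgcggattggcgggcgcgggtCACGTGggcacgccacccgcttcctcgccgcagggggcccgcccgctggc
MNT: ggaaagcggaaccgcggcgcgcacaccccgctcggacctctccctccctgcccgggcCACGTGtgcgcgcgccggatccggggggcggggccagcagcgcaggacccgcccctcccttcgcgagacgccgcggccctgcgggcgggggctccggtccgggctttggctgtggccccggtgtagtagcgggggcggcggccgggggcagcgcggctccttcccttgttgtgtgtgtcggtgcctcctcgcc
MXD4: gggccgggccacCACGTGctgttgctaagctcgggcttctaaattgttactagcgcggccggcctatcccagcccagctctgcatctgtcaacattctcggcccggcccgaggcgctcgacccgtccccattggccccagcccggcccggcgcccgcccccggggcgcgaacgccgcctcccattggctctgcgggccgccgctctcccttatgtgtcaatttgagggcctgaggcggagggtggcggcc

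The common partners were examined first. MAX, without which MYC cannot bind DNA, is on the minus strand of chromosome 14 from 65006101 to 65102695. Coordinates are given for GRCh38, which the intervals matched, although the processing notes of the submitters name GRCh37. An interval of 270 bp, chr14:65102273-65102542, lay 153 bp inside the outer end of MAX. It spanned a RefSeq start of MAX at 65102283, which is 412 bp inside that end. Its score was 37, and 66.4% of the 5019 intervals scored lower. The other interval near MAX, chr14:64986861-64987125 with a score of 27, lay 18976 bp beyond the far end. That one overlapped FNTB, a farnesyltransferase subunit, the joint gene CHURC1-FNTB and LOC107984655, which is not protein-coding. Its midpoint was 98 bp from an end of FNTB, so that by position it was a FNTB interval.

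MLX, the shared partner of the Mondo proteins, is on the plus strand of chromosome 17 from 42567100 to 42573203 and was the member with the most intervals within 25 kb, namely 3. Inside the gene, 362 bp from its start, lay an interval of 200 bp (chr17:42567462-42567661) with a score of 39, and 71.4% of the list scored lower. It began 407 bp beyond the E-box marked in the MLX sequence above, so the interval did not cover that E-box. On the upstream side, chr17:42553617-42553816 lay 13284 bp from MLX and overlapped HSD17B1, which encodes a steroid dehydrogenase, and its antisense gene HSD17B1-AS1. It was written on 3 lines with the same score of 27. On the downstream side, chr17:42577272-42577665, also with a score of 27, lay 4069 bp beyond MLX and overlapped PSMC3IP, a gene of meiotic recombination. The neighbouring end of COASY, an enzyme of coenzyme A synthesis, was 823 bp from the start of MLX, and it was not within 1 kb of the midpoint of the MLX interval.

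Among the repressors, only MXD3 had an interval. MXD3 is on the minus strand of chromosome 5 from 177305499 to 177312752. The interval chr5:177312831-177313062 (232 bp) lay 79 bp upstream of the start, outside the gene, and overlapped no annotated gene. No end of another protein-coding gene was within 1 kb of it, and the nearest such end to the start of MXD3 was that of PRELID1 at 5803 bp. Its score of 27 was below the median, with 34.0% of the list lower. MXD3 lies in a region dense in genes and intervals, with 17 other protein-coding genes and 21 intervals within 250 kb, whereas the median protein-coding gene had 1 interval in that range (quartiles 0 and 3).

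MXD1, MXD4, MXI1 and MNT, which also pair with MAX, had no interval within 25 kb. The nearest one to MNT was 75535 bp away, at SRR (chr17:2308267-2308538, score 57). For MXD1 it was at 199193 bp (score 13, the lowest in the list) and for MXI1 at 210597 bp, in DUSP5, a MAP kinase phosphatase (score 38). For MXD4 the distance was 273935 bp, to an interval in FAM193A (score 27). These distances compare with a median of 111642 bp over 19974 protein-coding genes on chromosomes with an interval. Of those genes, 43.8% had an interval closer than MNT did and 64.6% had one closer than MXD4 did. Within 250 kb of MXD4 lay 9 other protein-coding genes but 0 intervals. The list held no interval between MXD4 and the low-coordinate end of chromosome 4. On the side away from the nearest interval, the next one was 4478824 bp from MXD1, 5975149 bp from MXI1 and 192977 bp from MNT. Some of these genes thus lay beside long stretches without intervals, and the part of coverage or copy number in this was not tested.

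The glucose-responsive members differed from each other. MLXIP, on the plus strand of chromosome 12 from 122078756 to 122147344, had 2 intervals. The first, chr12:122078767-122079065 (299 bp), began 11 bp inside the start of the gene and had the lowest score of the 8, namely 20, with 15.4% of the list lower. The second, chr12:122123142-122123350 (209 bp), lay 44386 bp inside the gene, 23994 bp from its far end. It had the highest score of the 8, namely 48, with 84.7% of the list lower, and no protein-coding gene other than MLXIP overlapped it. The gene table gives no exons, so its place relative to the exons of MLXIP is not known. MLXIPL on chromosome 7 (73593202 to 73647907) had no interval within 25 kb. The nearest one was 71393 bp away, at STX1A, a membrane fusion gene (score 17). The RefSeq start of MLXIPL used for its promoter is 23385 bp inside the outer gene end, and neither had an interval within 1 kb.

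**Figure D2:**
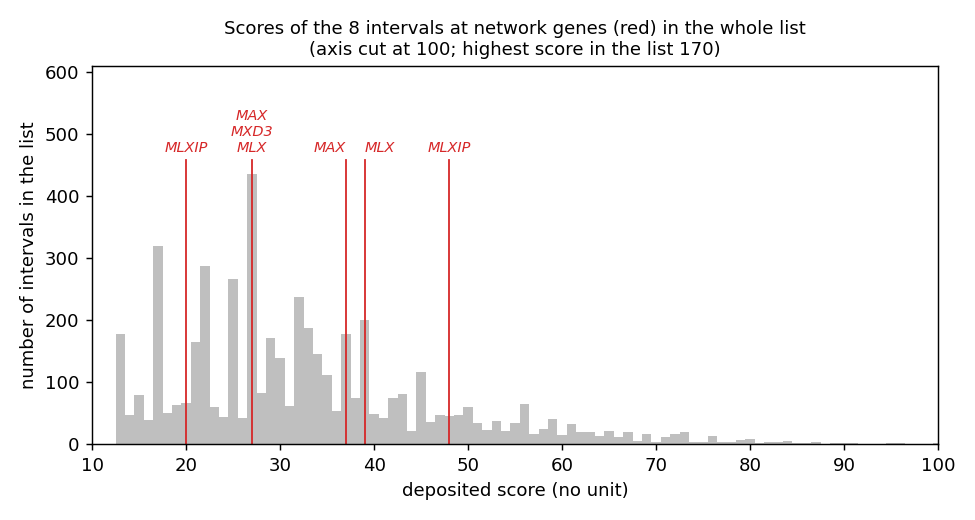
Grey bars give the number of the 5019 intervals at each deposited score, and red lines mark the scores of the 8 intervals in or within 25 kb of network genes, with the gene named above. Of the 8, 5 score 27 or lower, and the start intervals of MAX (37) and MLX (39) and the inner MLXIP interval (48) lie above the median of 30.

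MYC stood farthest from any interval among the 10 genes. It is on chromosome 8 from 127735434 to 127742951, with 0 intervals within 1 Mb on either side. The nearest interval, chr8:125429950-125430149 with a score of 27, was 2305285 bp away, with its midpoint 308 bp from an end of TRIB1. Of the 19974 genes, 92.2% had an interval closer than that. Among all 20037 protein-coding genes, 3272 (16.3%) likewise had none within 1 Mb. No other protein-coding gene lay within 250 kb of MYC, so that range held no promoter of a coding neighbour. Distant enhancers of MYC are known from other cell types, and assignment of such elements is outside what a peak list can show.

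**Figure D3:**
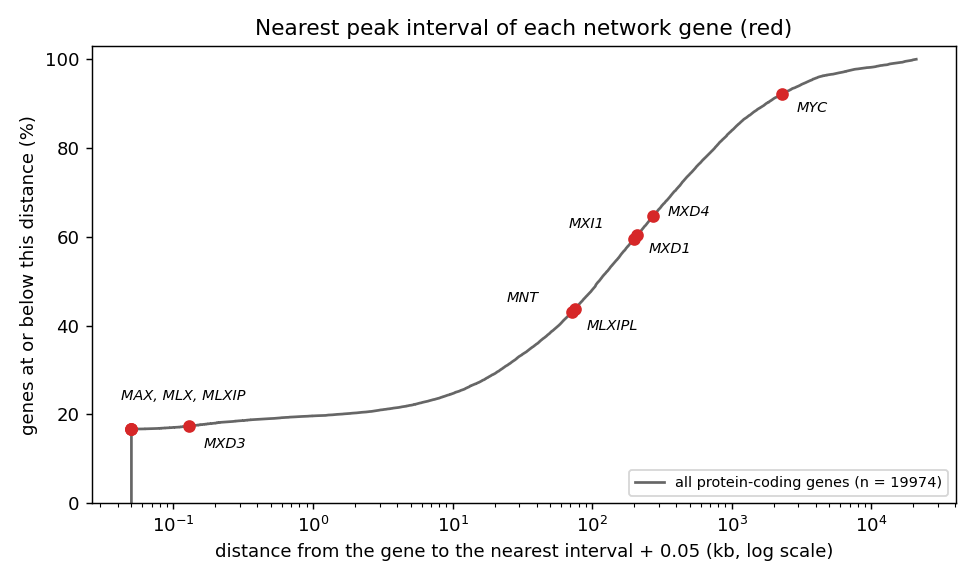
The grey curve gives the share of 19974 protein-coding genes (%, vertical axis) whose nearest interval is at or below a distance (kb, log axis, with 0.05 added so that genes overlapping an interval can be drawn). Red points are the 10 network genes: MAX, MLX and MLXIP overlap an interval, MXD3 is 79 bp from one, and MYC is farthest.

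Next, the letters of the promoters were compared. RefSeq promoters of 300 bases (250 before and 50 after a start) were given for 9 of the 10 genes, MYC being the exception, and for 15842 protein-coding genes in all. The E-box CACGTG was present in MLX, MNT and MXD4, which was 3 of 9 genes, compared with 10.9% of all genes and 13.6% of the 2396 genes with an interval at the start. Of these 3, only MLX had an interval. In MLX the E-box began 50 bases before the start, in MNT 193 and in MXD4 238. The wider form CANNTG, which includes CACGTG, was found in 7 of 9 members, in 70.5% of all genes and in 63.1% of genes with a start interval. RFX proteins are known to bind X-boxes, so their half-sites were searched on both strands. GTTGCC was in 0 of 9 members, compared with 16.2% of all genes and 16.1% of those with a start interval. GTTACC was in MXD3 only, compared with 8.07% and 6.22%, respectively. All these shares are of the promoters of 300 bases, which an interval at the start need not overlap. The sequences under the intervals themselves were not searched, so the shares do not tell how often they hold a motif. The GTTACC of MXD3 was past the start and outside the interval. The promoters of MAX and MLXIP held none of the motifs searched. An interval covered 261 bases of the MAX window at the start 65102283 and 0 of the other MAX window. It covered 39 bases in MLXIP, 172 in MXD3 and 0 in MLX. Only in MXD3 could a motif that was found therefore have been inside an interval, and it was not.

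Base composition was then set beside the intervals. The promoters of genes with a start interval had a median GC share of 68.3% (quartiles 62.6% and 73.7%), compared with 61.7% (52.3% and 69.3%) for the other genes. For these values only the first listed promoter of each gene was used, whereas the members are given at every listed start. Among the members with an interval, the share was 73.7% in MLXIP, 71.0% in MLX, 68.7% and 63.3% at the 2 starts of MAX, and 60.7% in MXD3. The members without an interval overlapped this range, from 55.0% at the first of the 3 starts of MXI1 to 76.0% in MNT. Of the 2 MAX promoters, the interval overlapped only the one with 63.3%. The part of base composition in where intervals lay was not tested.

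**Figure D4:**
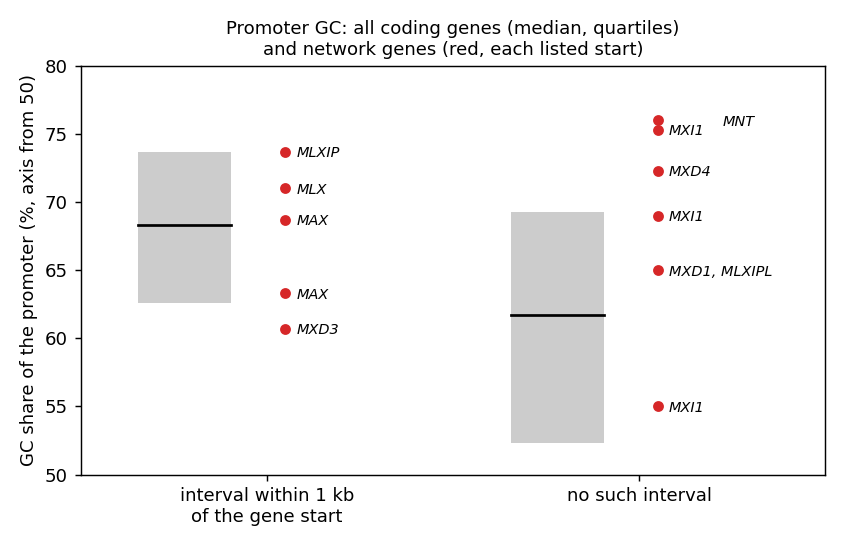
Grey bars span the quartiles of promoter GC share (%, axis from 50) of protein-coding genes with and without an interval within 1 kb of the start. They use the first listed promoter of each gene. The black line is the median, and red points are network genes at each listed start. The members with an interval (60.7% to 73.7%) lie within the range of those without one (55.0% to 76.0%).

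Finally, 59 other genes around the network were counted, all of which were found in the table. An interval lay within 1 kb of an end of 24 of them (40.7%), beside 15.5% of all protein-coding genes. Many of these genes are expressed in most cells, and the part of expression in this share was not tested. The lists were chosen with earlier results of these data known. Their shares, here and below, therefore describe the listed genes only. The relatives MYCN, MYCL and MGA had none. Among the cofactors, 8 of 18 (44.4%) had one. These included HDAC2, a histone deacetylase of the SIN3 complex that the MXD proteins recruit (score 59), EP400 and ACTL6A of the chromatin machinery used by MYC (55 and 61), and WDR5, which helps MYC bind chromatin (34). Lower scores were seen at TRRAP (21), KAT5 (25 and 27), HCFC1 (17) and ZBTB17 (27), the last of which is the MIZ1 protein through which MYC represses. The KAT5 interval with a score of 27 was at the far end of the gene and also within 1 kb of an end of RNASEH2C.

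Regulators of MYC stability had such an interval in 7 of 11 genes (63.6%), beside 15.5% of all protein-coding genes. At FBXW7, the ubiquitin ligase that marks MYC for degradation, the interval had a score of 40 and its midpoint was 8 bp from the gene start. GSK3B, the kinase that phosphorylates MYC for FBXW7, had a score of 41, and PPP2R5A, a subunit of phosphatase PP2A, had 40 and 32. USP36 (43 and 32), PIM1 (43 and 37), AURKA (37) and STUB1 (27) were the others. The AURKA interval was also within 1 kb of an end of CSTF1, and CSTF1 was nearer.

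Of the target genes of MYC or the Mondo proteins, 9 of 27 (33.3%) had such an interval, again beside 15.5%. The highest scores were at FASN, fatty acid synthase (64 and 25), E2F1, a cell cycle factor (62), ODC1, the first enzyme of polyamine synthesis (59 and 34), and SLC16A1, a lactate transporter (58). CDK4 (37), PKLR (34), SHMT2 (32), SLC2A1 (30) and SCD (19) followed. The interval of SLC2A1, the glucose transporter GLUT1, was at the far end of the gene, and those of PKLR and SHMT2 were also within 1 kb of an end of FDPS and COXFA4L2, respectively. The PKLR interval was nearer to FDPS than to PKLR. TXNIP and ARRDC4, the genes most closely tied to MondoA, had no interval within 1 kb of an end, nor had LDHA, HK2, ENO1 and PKM. The latter act in glycolysis, as does PKLR, which had one. These genes are examples, and other targets also lacked one. TERT and ACLY had an interval in the gene or 2 kb beside it, but not within 1 kb of an end. The strand was given for 15 of the 24 genes, and in 14 of these an interval was at the start. Over the 24 genes there were 30 intervals with a median score of 35.5. The 4 intervals at the starts of network members had a median score of 32. The whole list, which also holds intervals away from gene ends, had a median of 30.

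**Figure D5:**
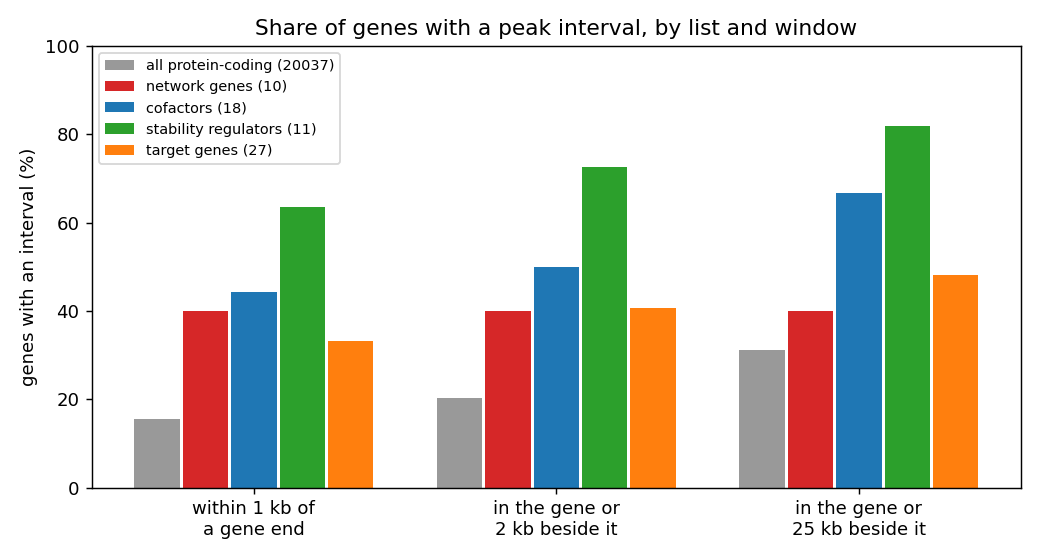
Bars give the share of genes (%) with an interval within 1 kb of a gene end, in the gene or 2 kb beside it, and in the gene or 25 kb beside it, for all protein-coding genes (grey), the 10 network genes (red), 18 cofactors (blue), 11 stability regulators (green) and 27 target genes (orange). The network genes stay at 40.0% in all 3 windows, while the share of all genes goes from 15.5% to 20.3% and 31.1%. The network genes and the lists were chosen with earlier results of these data known.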

How the data were processed

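The authors fixed MHCC-97H cells with formaldehyde for ChIP-seq, and 1 HA-RFX6 ChIP and 1 input library were grouped by their titles. Per the submitters' processing notes, peaks were called with MACS2 2.1.0.2 and GRCh37 is named; the study's methods give a q value threshold of 0.01. The deposited file is a headerless peak list with a score per peak, whose meaning is not stated. Aligner, read depth and use of the input as control are not given in the sources used here.

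The list held 6214 lines, 1 with split digits that were rejoined. Identical intervals were counted once with their highest score, which left 5022. The 3 mitochondrial ones were left out. Starts were read as 0-based and are printed 1-based. Genes and promoters came from RefSeq tables of GRCh38.p14. To check the build, midpoints within 1 kb of a protein-coding gene end were counted. These were 60.8% of intervals, which became 7.65% when all were moved by 20 kb downwards and 8.11% upwards. The strand was known for 15842 of 20037 genes. Members and gene lists were chosen with earlier results of these data known, and genes were named by a rule. All 10 members were named, with the genes that their intervals overlapped or neighboured, and each other listed gene with an interval within 1 kb of an end. Genes listed without an interval were named in addition, as were start neighbours. Some genes of these lists are not reported here and were left out of the counts. No test was run, since genes and intervals are not replicates. The counting was tested on simulated data in Python 3.11.15 with numpy 2.4.6 and pandas 2.3.3; plots used matplotlib 3.10.9.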

Additional observations from a re-analysis of the deposited data

How the results depend on the processing

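With scores of at least 30, 2 members (MAX and MLX) in place of 4 had an interval within 1 kb of a gene end. Among all protein-coding genes, the share with this cut was 9.50% in place of 15.5%. In or within 25 kb of the members, 3 in place of 8 intervals were left. The cut of 30 was the median score of the whole list. The start intervals of MXD3 (27) and MLXIP (20) therefore rest on scores below the median. After moving all intervals by 20 kb, the count of members at gene ends was 0 (down) and 2 (up). The count in the gene or 2 kb beside it was 2 (down) and 3 (up), and within 25 kb it was 4 in both directions. Unmoved, the count was 4 in each of these windows. The share of all protein-coding genes after the move is not given, so the moved counts have no background beside them. Of the 59 other genes, 14 in place of 24 had an interval at the gene start. The strand was not given for 9 of the 24, and the interval of SLC2A1 was at the far end. Among all protein-coding genes with a known strand, 15.1% had an interval at the start. The 59 also include genes without a known strand, so the 14 cannot be set against that share. The count of members at gene ends was also 4 with any overlap, by the nearest gene end, within 2 kb or 5 kb, after merging and with scores of at least 20. The share of all protein-coding genes at these settings is not given. An unchanged count therefore does not show that the difference from all genes was unchanged. The first listed promoter of each gene, an alternative added after the data were seen, left the count of members with CACGTG at 3. No paired analysis was possible because the series holds a single ChIP library, and no replicate could be left out.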
